A study of Mus musculus with 14 samples.

Results

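The genes described here are 10 genes of the blood-brain barrier endothelium: the tight junction genes Cldn5, Ocln, Tjp1 and Lsr, the transport genes Slc2a1, Mfsd2a and Abcb1a, the permeability gene Plvap, and the adhesion genes Cdh5 and Pecam1. They were chosen by symbol, and all 10 were found among the 46904 genes of the expression table. The table held RPKM values, read counts scaled to gene length and library size, for 14 brain hemispheres. Cort+/+ mice and mice with a constitutive deletion of the cortistatin gene (Cort-/-), both on a C57BL/6J background and male, underwent transient middle cerebral artery occlusion (MCAO), a filament model of stroke followed by reperfusion, and RNA was taken 48 h later. Each genotype gave ischemic hemispheres (MCAO) and contralateral hemispheres (CL) of operated mice, with 3 Cort+/+ CL, 3 Cort+/+ MCAO, 3 Cort-/- CL and 5 Cort-/- MCAO libraries, described as independent biological replicates, so the CL samples are not from unoperated or sham mice. The mice sequenced were 12 weeks old and had 20 min of occlusion. The paper names 5 MCAO replicates, and the 3 Cort+/+ MCAO libraries here are replicates 2, 3 and 4. It states that, where replicates varied widely, only those that grouped clearly were kept. How far this narrowed the spread of the Cort+/+ MCAO group was not tested.

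Brain capillaries are lined by endothelial cells that are sealed to each other by tight junctions, carry few vesicles and move nutrients through dedicated transporters. Claudin-5 and occludin span the junction, ZO-1 anchors it to the cytoskeleton, and the endothelium keeps this state under Wnt signals from neighbouring cells. After ischemia the barrier opens, through both loosened junctions and increased vesicle transport. Whole hemispheres were sequenced, so a lower level of an endothelial transcript can come from fewer endothelial cells or from less of it per cell, and these cannot be told apart here. Tjp1, Slc2a1, Ocln and Lsr are also transcribed outside the endothelium.

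The genotype labels were checked on Cort, the deleted gene. Cort had 64, 133 and 139 reads in the Cort+/+ CL libraries and 108, 93 and 81 in the Cort+/+ MCAO libraries, against 0, 1 and 0 in Cort-/- CL and 0, 4, 1, 0 and 1 in Cort-/- MCAO. No Cort-/- library reached the lowest Cort+/+ library. Reads on genes, recovered from the RPKM values as whole numbers, ran from 25999138 to 43047054 per library, which gave each barrier gene between 172 reads (the lowest library for Lsr) and 5313 reads (the highest for Tjp1). Endothelial markers were present in every library, with Cd34 between 17.2 and 29.9 RPKM and Flt1 between 4.58 and 7.17 RPKM.

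In mean RPKM over the 14 libraries, which is a level per gene length, Slc2a1, the glucose transporter GLUT1, came first with 32.6, and the tight junction genes Cldn5 and Tjp1 followed with 17.4 and 16.0. Mfsd2a, the lipid transporter that holds back transcytosis, had a mean of 10.3 RPKM and Abcb1a, the efflux pump P-glycoprotein, 6.62 RPKM. Pecam1 (5.02), Plvap (4.35), Cdh5 (3.86), Lsr (3.16) and Ocln (1.98) came after them. Among neighbours in this order, the ranges over libraries did not overlap between Slc2a1 and Cldn5 or between Mfsd2a and Abcb1a, and they overlapped for the other 7 pairs. Abcb1a and Tjp1 varied least, with a standard deviation of 9.43% and 9.27% of the mean, and Pecam1 and Mfsd2a most, with 22.9% for both.

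Windows of 300 bases around the transcription start, most of them before it, were taken from RefSeq for the mouse build GRCm38.p6, and matched 7 of the 10 genes (2 windows for Ocln; Plvap, Cdh5 and Pecam1 were not matched). They were searched on both strands for 4 motifs: ACGTG, the core of the hypoxia response element, AGGAAG and CGGAAG, 2 core forms of ETS factor sites, and ATCAAAG, the core of the TCF/LEF site that Wnt signals use. The windows shown were picked because they set Cldn5, called higher in MCAO over both genotypes, beside the transporters Slc2a1 and Mfsd2a, which were not called. Capitals mark every ACGTG match, which reads CACGT on the other strand.
Slc2a1, chr4:119108495-119108794, plus strand: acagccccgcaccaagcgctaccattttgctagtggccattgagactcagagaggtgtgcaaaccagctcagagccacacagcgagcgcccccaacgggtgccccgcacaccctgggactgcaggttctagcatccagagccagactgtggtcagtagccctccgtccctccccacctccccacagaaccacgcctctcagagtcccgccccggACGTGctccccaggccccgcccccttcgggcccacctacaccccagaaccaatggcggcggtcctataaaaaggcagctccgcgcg
Mfsd2a, chr4:122961139-122961438, minus strand: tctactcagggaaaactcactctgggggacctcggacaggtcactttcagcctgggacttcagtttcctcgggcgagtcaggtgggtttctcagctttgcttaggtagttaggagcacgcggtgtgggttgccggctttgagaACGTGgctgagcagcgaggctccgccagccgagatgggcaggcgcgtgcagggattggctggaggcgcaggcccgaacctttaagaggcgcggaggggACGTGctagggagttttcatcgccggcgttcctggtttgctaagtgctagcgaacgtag
Cldn5, chr16:18776597-18776896, plus strand: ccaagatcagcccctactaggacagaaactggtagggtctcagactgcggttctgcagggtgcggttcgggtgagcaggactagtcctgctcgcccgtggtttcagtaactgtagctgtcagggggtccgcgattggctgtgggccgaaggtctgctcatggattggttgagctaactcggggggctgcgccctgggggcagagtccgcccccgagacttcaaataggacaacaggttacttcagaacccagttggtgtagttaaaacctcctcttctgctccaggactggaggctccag
ACGTG occurred 1 time in the Slc2a1 window and 2 times in the Mfsd2a window, and the motif was present in 19.6% of the 32851 RefSeq promoter windows. Tjp1 also held 1 match, and Abcb1a and Lsr, which were not called either, held none. A link between this motif and the change in MCAO was not tested. The Cldn5 window and both Ocln windows held none of the 4 motifs. AGGAAG, found in 35.4% of all windows, occurred 2 times in Abcb1a, CGGAAG, found in 16.9%, occurred 1 time each in Lsr and Tjp1, and ATCAAAG, found in 3.73%, occurred in none of the 7 genes. These are matches of letters and not measured binding.

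Cldn5 encodes claudin-5, the main sealing protein of the endothelial tight junction (chromosome 16, 18595597 to 18597012, GRCm39). Its level was 16.8, 14.9 and 16.0 RPKM in Cort+/+ CL and 18.6, 19.8 and 18.4 RPKM in Cort+/+ MCAO, so that every ischemic library of this genotype lay above every contralateral one. In Cort-/- mice it was 13.3, 15.6 and 10.3 RPKM in CL and 22.0, 18.9, 18.6, 25.4 and 15.4 RPKM in MCAO, where 4 of the 5 ischemic libraries lay above the highest CL library. Over both genotypes Cldn5 rose 1.35-fold in MCAO (log2FC 0.43 ± 0.11 SE, limma, adjusted p = 0.0488). The difference was 0.25 on the log2 scale in Cort+/+ (adjusted p = 0.833) and 0.62 in Cort-/- (adjusted p = 0.0542), each short of the threshold of 0.05.

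Ocln encodes occludin, the second membrane protein of the junction (chromosome 13, 100630334 to 100689535). Cort+/+ libraries gave 1.92, 1.97 and 1.52 RPKM in CL and 2.33, 2.29 and 2.24 RPKM in MCAO, without overlap. Cort-/- libraries gave 1.86, 1.42 and 1.65 RPKM in CL and 2.08, 2.21, 1.94, 2.48 and 1.86 RPKM in MCAO, where the lowest ischemic value met the highest contralateral one. The 2 genotypes had nearly the same difference, log2FC 0.34 in Cort+/+ and 0.35 in Cort-/-, neither called alone (adjusted p = 0.515 and 0.180). Their mean, 0.34 ± 0.09 SE or 1.27-fold, passed the threshold by the narrowest margin (adjusted p = 0.04997). By qPCR, the paper reported lower occludin and claudin-1 RNA in the ischemic than in the contralateral hemisphere of Cort-/- mice, with claudin-5 RNA unchanged. The Ocln difference here has the opposite direction. Cldn5 had a log2FC of 0.62 in Cort-/- mice (95% interval 0.30 to 0.93), short of the threshold (limma, adjusted p = 0.0542). Cldn1, the claudin-1 gene, had −0.17 over both genotypes and was not called. The reason for the differences from the qPCR was not tested.

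Tjp1 encodes the scaffold protein ZO-1 (chromosome 7, 64945898 to 65177529). It stood at 13.7, 16.9 and 14.1 RPKM in Cort+/+ CL, 17.3, 16.4 and 15.3 in Cort+/+ MCAO, 16.3, 13.3 and 15.9 in Cort-/- CL, and 15.004, 17.2, 17.3, 16.7 and 18.1 in Cort-/- MCAO. The 4 groups overlapped, with group means of 14.9, 16.4, 15.2 and 16.9 RPKM. The mean log2FC of MCAO against CL was 0.15, with a 95% interval from 0.01 to 0.29, and was not called (adjusted p = 0.299).

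Lsr encodes angulin-1, which seals the corners where 3 cells meet (chromosome 7, 30657195 to 30673340). It measured 3.15, 3.24 and 2.67 RPKM in Cort+/+ CL, 3.30, 3.28 and 3.23 in Cort+/+ MCAO, 3.08, 2.53 and 2.45 in Cort-/- CL, and 4.12, 3.78, 3.19, 3.40 and 2.87 in Cort-/- MCAO. In Cort-/- mice only the lowest ischemic library fell within the CL range. The mean log2FC was 0.24 (95% interval 0.05 to 0.42) and was not called (adjusted p = 0.187).

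**Figure D1:**
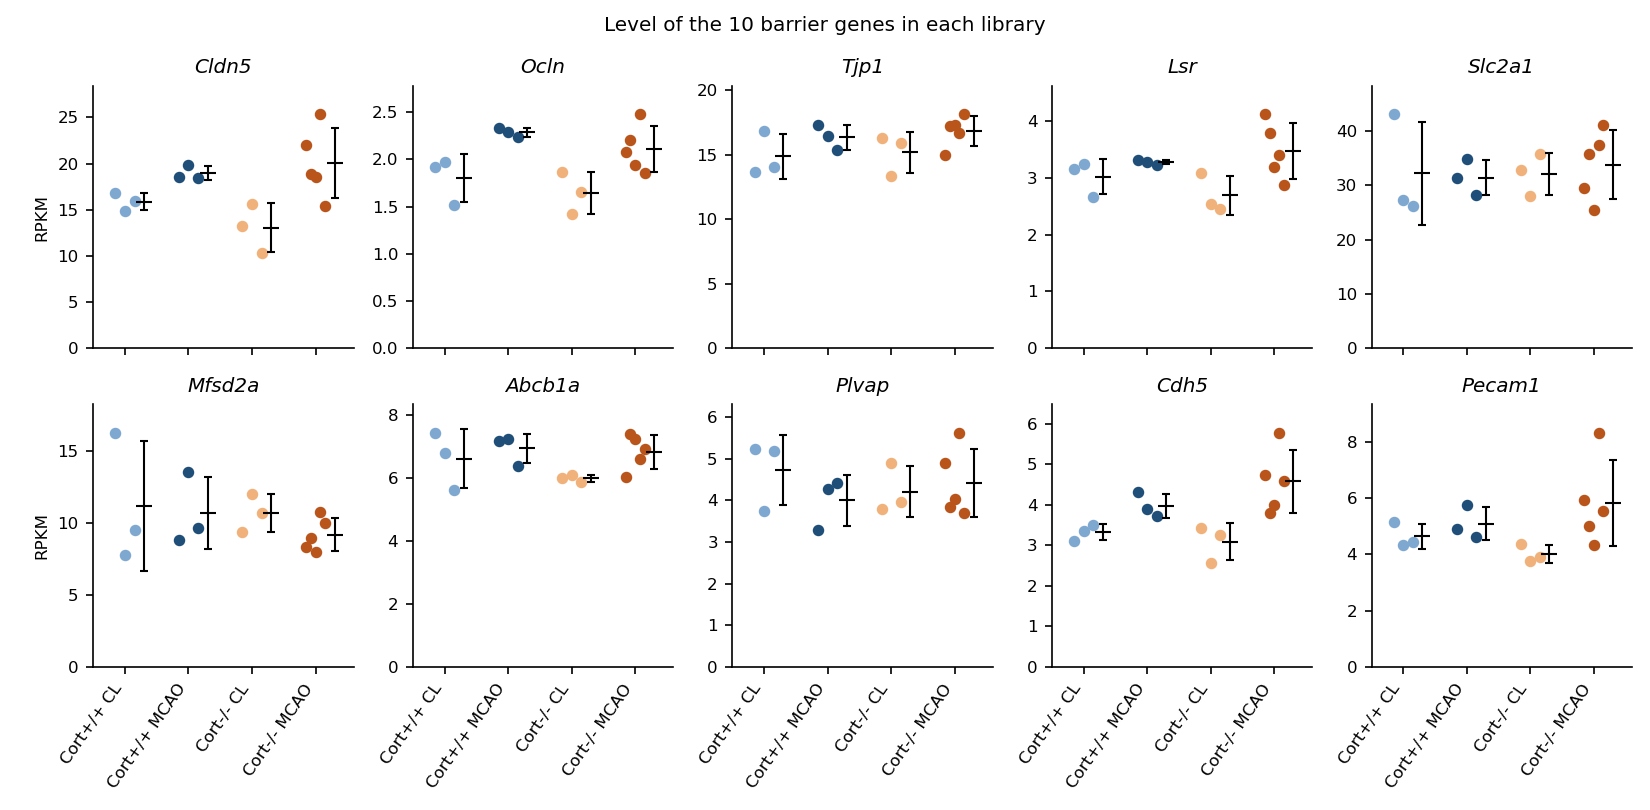
RPKM of each of the 10 barrier genes (y axis, from 0) in every library, by group (x axis); points are libraries and the black mark beside each group is its mean ± SD. Cldn5, Ocln and Cdh5 of Cort+/+ mice are higher in all 3 MCAO libraries than in all 3 CL libraries, while Slc2a1, Mfsd2a, Abcb1a and Plvap overlap between groups.

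None of the 3 transport genes was called in MCAO. Slc2a1 (chromosome 4, 118965908 to 118996365) measured 43.1, 27.3 and 26.3 RPKM in Cort+/+ CL, 31.3, 34.8 and 28.2 in Cort+/+ MCAO, 32.7, 28.03 and 35.7 in Cort-/- CL, and 29.4, 35.7, 25.5, 37.4 and 41.1 in Cort-/- MCAO. The means of the 4 groups lay within 31.4 to 33.8 RPKM. The mean log2FC of MCAO against CL was 0.03, with a 95% interval from −0.26 to 0.31 (adjusted p = 0.965), so that changes outside 0.836-fold to 1.24-fold lay beyond the interval.

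Mfsd2a (chromosome 4, 122840643 to 122855244) measured 16.3, 7.76 and 9.49 RPKM in Cort+/+ CL, 8.85, 13.6 and 9.67 in Cort+/+ MCAO, 9.36, 12.1 and 10.7 in Cort-/- CL, and 8.32, 8.93, 8.02, 10.8 and 9.99 in Cort-/- MCAO. Its mean log2FC was −0.12 (95% interval −0.45 to 0.22, adjusted p = 0.815). The first Cort+/+ CL library held the highest value of both Slc2a1 and Mfsd2a, and without it the Cort+/+ log2FC of MCAO against CL was 0.29 for Mfsd2a and 0.22 for Slc2a1 in place of −0.02 and −0.00. Both genes lie on the chromosome of Cort, 26.4 and 30.2 megabases from it.

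Abcb1a (chromosome 5, 8710022 to 8798575) was the steadiest transport gene, at 7.43, 6.78 and 5.60 RPKM in Cort+/+ CL, 7.16, 7.24 and 6.38 in Cort+/+ MCAO, 6.00, 6.08 and 5.86 in Cort-/- CL, and 6.02, 7.37, 7.22, 6.58 and 6.90 in Cort-/- MCAO. In Cort-/- mice 4 of the 5 ischemic libraries lay above the 3 CL libraries. The mean log2FC was 0.13 (95% interval −0.01 to 0.27) and was not called (adjusted p = 0.404).

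Plvap encodes the diaphragm protein of fenestrated vessels, which mature barrier endothelium holds at a low level and which the choroid plexus vessels carry (chromosome 8, 71948674 to 71964506). It measured 5.24, 3.75 and 5.19 RPKM in Cort+/+ CL, 3.29, 4.28 and 4.42 in Cort+/+ MCAO, 3.78, 4.90 and 3.95 in Cort-/- CL, and 4.89, 3.85, 4.04, 5.63 and 3.69 in Cort-/- MCAO. The groups overlapped in both genotypes, and the mean log2FC was −0.09 (95% interval −0.35 to 0.17, adjusted p = 0.825). No rise of this marker of a leaky vessel type was detected at this precision, and a mean rise above 1.13-fold lay beyond the interval. In Cort-/- mice alone the log2FC was 0.06 and the interval reached 1.32-fold. In Cort+/+ mice the log2FC was −0.23. The summed level of 7 choroid plexus epithelium genes ran from 294.0 to 447.6 RPKM in Cort+/+ CL and from 314.4 to 433.8 in Cort+/+ MCAO. In Cort-/- mice it ran from 337.8 to 420.4 RPKM in CL and from 300.8 to 498.1 RPKM in MCAO. Ttr, with a mean of 364.3 RPKM, made up most of this sum. The part of the choroid plexus in the spread of Plvap was not tested.

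Cdh5 encodes VE-cadherin, the adherens junction protein by which endothelial cells hold together (chromosome 8, 104828231 to 104871143). It was 3.11, 3.34 and 3.50 RPKM in Cort+/+ CL and 4.31, 3.89 and 3.72 in Cort+/+ MCAO, and 3.43, 2.57 and 3.26 in Cort-/- CL against 4.74, 3.80, 4.01, 5.78 and 4.58 in Cort-/- MCAO. It was the only 1 of the 10 genes whose MCAO libraries lay above the CL libraries in both genotypes. Such an arrangement held for 8.19% of genes averaging 1 RPKM or more in Cort+/+ and for 8.85% in Cort-/- mice. The share with it in both genotypes was not computed. Cdh5 rose 1.47-fold in Cort-/- mice (log2FC 0.55 ± 0.13 SE, limma, adjusted p = 0.0479) and 1.32-fold over both genotypes (0.40 ± 0.09 SE, adjusted p = 0.0365), and in Cort+/+ mice its log2FC of 0.25 was not called (adjusted p = 0.753).

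Pecam1, the endothelial adhesion molecule CD31 (chromosome 11, 106543689 to 106641454), measured 5.13, 4.34 and 4.42 RPKM in Cort+/+ CL, 4.91, 5.74 and 4.61 in Cort+/+ MCAO, 4.37, 3.75 and 3.92 in Cort-/- CL, and 5.92, 5.01, 4.31, 8.32 and 5.52 in Cort-/- MCAO. The fourth Cort-/- MCAO library was the highest for Pecam1, as for Cldn5, Ocln, Plvap and Cdh5. Pecam1 is also carried by platelets and leukocytes. Its log2FC was 0.49 in Cort-/- (adjusted p = 0.172) and 0.31 over both genotypes (adjusted p = 0.228), and neither was called.

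Counted together, 3 of the 10 genes rose over both genotypes and none fell, where 2.52% of all 46102 genes tested and 5.56% of the 15063 genes averaging 1 RPKM or more, as all 10 genes do, were called higher. At an unadjusted p under 0.05, 6 of the 10 were higher in MCAO (Cldn5, Ocln, Tjp1, Lsr, Cdh5 and Pecam1), against 13.4% of the genes at this level. In Cort-/- mice 1 of 10 was called higher, against 1.34% of all genes and 3.05% of those at this level, and 5 of 10 were higher at an unadjusted p under 0.05 (11.6%). Among Cort+/+ mice none was called, where the limma test called 0.0108% of all genes in either direction, and 1 of 10 (Ocln) had an unadjusted p under 0.05 and was higher (7.24%). The paper, which used edgeR, reported many more genes in this comparison, so the low share here does not mean that few genes changed. The groups did not overlap, with MCAO higher, for 3 of 10 genes in Cort+/+ mice (8.19%) and for 1 of 10 in Cort-/- mice (8.85%). The median log2FC of the 10 genes was 0.12 in Cort+/+, 0.26 in Cort-/- and 0.19 over both, against −0.02, −0.03 and −0.03 for the 15063 genes.

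The 3 calls over both genotypes lay close to the threshold and depended on single libraries. Leaving out 1 library at a time, Cldn5 was called in 2 of 14 fits (without Cort-/- CL replicate 2 or Cort-/- MCAO replicate 5), Ocln in 3 (without Cort-/- CL replicate 1, Cort-/- MCAO replicate 3 or 5) and Cdh5 in 5 (without Cort+/+ MCAO replicate 4, Cort-/- CL replicate 1 or Cort-/- MCAO replicate 2, 3 or 4). In the remaining fits the adjusted p rose to between 0.0525 and 0.119. Over all 14 fits the log2FC ran from 0.35 to 0.50 for Cldn5, from 0.28 to 0.38 for Ocln and from 0.34 to 0.44 for Cdh5. The Cort-/- call of Cdh5 was kept in 2 of the 14 fits (without Cort-/- MCAO replicate 2 or 3), and its log2FC in this genotype ran from 0.43 to 0.63 over all 14.

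**Figure D2:**
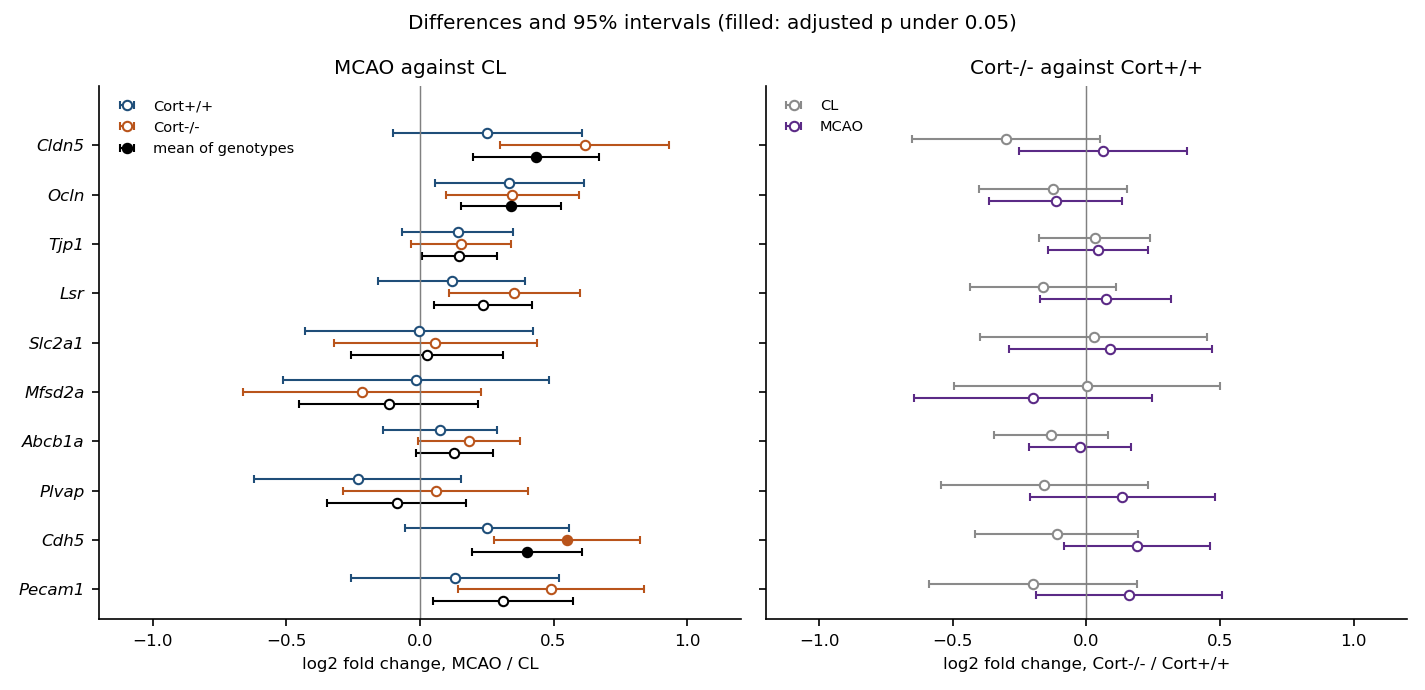
Log2 fold change (x axis) of each barrier gene (y axis) with its 95% interval from limma, for MCAO against CL (left) and Cort-/- against Cort+/+ (right); filled points have an adjusted p under 0.05. Cldn5, Ocln and Cdh5 are filled for the mean of both genotypes and Cdh5 for Cort-/- mice, and every genotype interval spans 0.

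The genotype difference was examined in each hemisphere. In CL, 7 of the 10 genes were lower and 3 (Tjp1, Slc2a1 and Mfsd2a) higher in Cort-/- than in Cort+/+ mice, with a median log2FC of −0.13, and none was called (limma, all adjusted p = 1), where 0.0152% of all genes were. None of the 10 had an unadjusted p under 0.05. Cldn5 had the largest difference, with 13.04 ± 2.66 RPKM in Cort-/- and 15.9 ± 0.956 RPKM in Cort+/+ (SD, n = 3 each), a log2FC of −0.30 with a 95% interval from −0.65 to 0.05. This value rested on 1 library, since without Cort-/- CL replicate 3 it was −0.14, smaller than the −0.18 of Pecam1. In the fit of all libraries Pecam1 followed with −0.20, Lsr with −0.16 and Plvap with −0.16, and Slc2a1 (0.03) and Mfsd2a (0.00) were at the other end. For no gene were the 3 Cort-/- CL libraries all below the 3 Cort+/+ CL libraries, an arrangement found for 2.6% of the genes averaging 1 RPKM or more.

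In the ischemic hemisphere 7 of the 10 genes were higher and 3 (Ocln, Mfsd2a and Abcb1a) lower in Cort-/- mice, with a median log2FC of 0.07. None was called (adjusted p = 1 for all 10; 0.0174% of all genes) and none had an unadjusted p under 0.05. Cdh5 (0.19, 95% interval −0.08 to 0.46) and Mfsd2a (−0.20, −0.64 to 0.25) had the largest differences. Both rested on single libraries, as Cdh5 had 0.10 without Cort-/- MCAO replicate 4 and Mfsd2a −0.02 without Cort+/+ MCAO replicate 3. For no gene were all 5 Cort-/- MCAO libraries below the Cort+/+ MCAO libraries, against 1.29% of the genes at this level.

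The genotype by MCAO interaction, the test of whether the ischemic change differed between genotypes, was positive for 9 of 10 genes and negative for Mfsd2a (−0.20). None was called, nor had an unadjusted p under 0.05, and 0.00217% of all genes were called. It was 0.36 for Cldn5 (95% interval −0.11 to 0.84), 0.36 for Pecam1 (−0.16 to 0.88) and 0.30 for Cdh5 (−0.11 to 0.71), and 0.01 for both Ocln and Tjp1. Leaving out 1 library lowered these to 0.20 for Cldn5 (without Cort-/- CL replicate 3), 0.23 for Pecam1 (without Cort-/- MCAO replicate 4) and 0.18 for Cdh5 (without Cort-/- CL replicate 2). The intervals of these 3 hold both no difference and a change 1.5-fold larger in Cort-/- mice. The CL comparison, the MCAO comparison and the interaction use the same libraries, so their values do not support each other.

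The other genes of the barrier were read from lists of tight and adherens junction, barrier transport, permeability and transcytosis, and Wnt and barrier program genes. Their counts of genes called higher over both genotypes are read against the 2.52% of all genes and 5.56% of genes averaging 1 RPKM or more given above. Among 21 junction genes, 3 rose in MCAO over both genotypes and none fell, and the median log2FC was 0.06. Among them were F11r, which encodes the junctional adhesion molecule JAM-A that platelets and leukocytes also carry (3.08 ± 0.0548 RPKM in Cort+/+ CL and 4.35 ± 0.494 in Cort+/+ MCAO, 2.70 ± 0.219 in Cort-/- CL and 4.85 ± 0.575 in Cort-/- MCAO; log2FC 0.65, adjusted p = 0.00125), and Ctnna1 (alpha-catenin; 0.23, adjusted p = 0.00708). The same 3 genes were called in Cort-/- mice (1.34% of all genes and 3.05% of those averaging 1 RPKM or more were higher). No junction gene was called in Cort+/+ mice (0.0108% of all genes in either direction).

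Of 23 further transport genes, 1 rose and none fell, a share near that background, with a median log2FC of 0.09. It was Slco2b1, an organic anion transporter, at 3.66 ± 0.423 RPKM in Cort+/+ CL, 5.19 ± 1.06 in Cort+/+ MCAO, 3.77 ± 0.0418 in Cort-/- CL and 5.63 ± 0.544 in Cort-/- MCAO (log2FC 0.52, adjusted p = 0.00815). The efflux pump gene Abcc4 (0.28, adjusted p = 0.0538) and Slc3a2, the heavy chain of the large amino acid transporter (0.22, adjusted p = 0.0552), came next and were not called.

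Among 15 permeability and transcytosis genes 2 rose and none fell, with the highest median of these 4 lists, 0.35. Cavin3, a coat protein of caveolae, was 7.50 ± 0.598 RPKM in Cort+/+ CL, 10.01 ± 0.688 in Cort+/+ MCAO, 7.30 ± 0.346 in Cort-/- CL and 11.2 ± 1.13 in Cort-/- MCAO (log2FC 0.51, adjusted p = 0.00140), with no overlap in either genotype. MCAO lay above CL without overlap for 8.19% of genes averaging 1 RPKM or more in Cort+/+ and 8.85% in Cort-/- mice. The share in both genotypes was not computed. Dysf, the membrane repair gene dysferlin, rose by a log2FC of 0.56 (adjusted p = 0.0138). Cav1, the structural protein of caveolae, had a log2FC of 0.39 (adjusted p = 0.0995) and Cavin1 0.30 (adjusted p = 0.129). Of 22 Wnt and barrier program genes only Wnt7b, a ligand made by neural cells, rose (log2FC 0.29, adjusted p = 0.00699), and the Wnt target Apcdd1 (0.40, adjusted p = 0.0813) and the ligand gene Ndp (0.23, adjusted p = 0.114) were not called. A count of 1 in 22 is also near the background of 5.56%. The median of this list was 0.11.

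**Figure D3:**
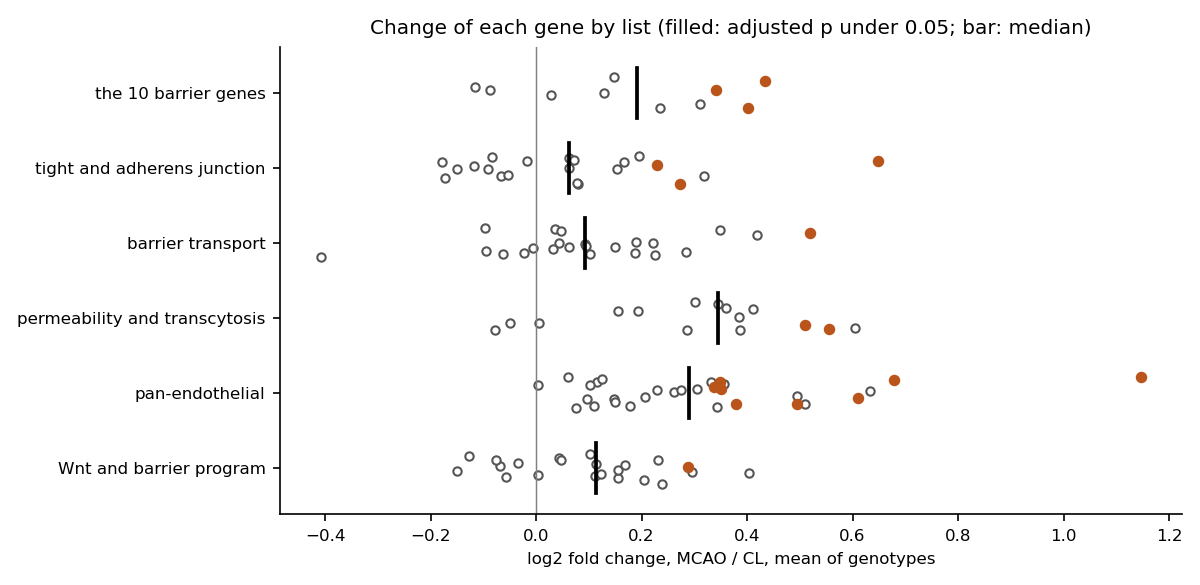
Log2 fold change of MCAO against CL, mean of both genotypes (x axis), for every gene of the 10 barrier genes and of 5 lists (y axis); filled points have an adjusted p under 0.05 and the bar is the list median. The pan-endothelial list has all 30 genes above 0 with 8 called, and the junction and transport lists have medians of 0.06 and 0.09.

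A list of 30 pan-endothelial genes, none of them among the 10, was read as a reference in each hemisphere. How much of their RNA came from other cells of the hemisphere was not tested. In MCAO over both genotypes 8 of the 30 were called higher and none lower, all 30 had a positive log2FC, and the median was 0.29. The shares called higher were 2.52% of all genes and 5.56% of those averaging 1 RPKM or more. The called genes with the lowest p were Ecscr (log2FC 1.15, adjusted p = 0.00473), the TGF-beta co-receptor Eng (0.38, adjusted p = 0.00647), Podxl (0.35, adjusted p = 0.0235), the transcription factor gene Sox7 (0.68, adjusted p = 0.0226), Mmrn2 (0.50, adjusted p = 0.0333) and the endothelial nitric oxide synthase gene Nos3 (0.35, adjusted p = 0.0351). In Cort-/- mice 5 were called (1.34% of all genes and 3.05% of those averaging 1 RPKM or more were higher) and the median was 0.39. In Cort+/+ mice none was called (0.0108% of all genes in either direction) and the median was 0.17.

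The mean log2 level of these 30 genes was 1.85 ± 0.02 (SD) in Cort+/+ CL, 2.02 ± 0.08 in Cort+/+ MCAO, 1.59 ± 0.10 in Cort-/- CL and 2.05 ± 0.13 in Cort-/- MCAO. The 3 Cort-/- CL libraries, at 1.51 to 1.71, lay below all other libraries, whose lowest was 1.84. All 30 genes had a negative log2FC in Cort-/- against Cort+/+ CL, with a median of −0.24, although none was called. Of the 30, 10 had an unadjusted p under 0.05 and were lower (1.36% of genes averaging 1 RPKM or more), and 11 had all Cort-/- CL libraries below all Cort+/+ CL libraries (2.6%). These 30 genes are measured in the same libraries and are not independent of each other. In MCAO the genotypes had a median difference of 0.01. Red blood cell genes had a summed level of 91.0 to 141.2 RPKM in Cort-/- CL against 125.0 to 329.6 RPKM in Cort+/+ CL, and the pericyte sum was 57.6 to 62.4 against 61.8 to 70.0 RPKM. Both pairs of ranges overlapped. The oligodendrocyte sum did not overlap, at 962.2 to 1168 RPKM in Cort-/- CL against 1173 to 1230 RPKM in Cort+/+ CL, and all 7 of its genes had a negative log2FC (median −0.16, none called). The part of these cells in the endothelial difference was not tested.

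The 10 barrier genes were also set against these 30 genes in the same library. Relative to the endothelial mean, Cdh5 (0.09), Pecam1 (−0.00), Cldn5 (0.12), Ocln (0.03) and Lsr (−0.08) differed between MCAO and CL by at most 0.12 on the log2 scale over both genotypes. Plvap (−0.40), Mfsd2a (−0.43), Slc2a1 (−0.29), Abcb1a (−0.19) and Tjp1 (−0.17) had larger, negative differences. An exact two-sided permutation test within genotype (1120 arrangements) gave p = 0.00536 for Plvap and p = 0.0437 for Mfsd2a, which became 0.0536 and 0.177 after adjustment over the 10 genes, so none passed.

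The relative difference of Plvap was of similar size in both genotypes, −0.41 in Cort+/+ and −0.40 in Cort-/-. The log2FC of Plvap itself was −0.23 in Cort+/+ and 0.06 in Cort-/- mice, so its own level did not fall in both. The endothelial mean went from 1.85 in CL to 2.02 in MCAO in Cort+/+ mice. In Cort-/- mice it went from 1.59 to 2.05. Mfsd2a differed by −0.19 in Cort+/+ and by −0.68 in Cort-/- mice. In Cort-/- mice all 5 relative MCAO values lay below the 3 CL values. The exact permutation p of 0.0179 is the smallest that 56 arrangements allow, and 3 against 3 cannot go below 0.10. This p was not adjusted for the genes and genotypes examined. The level of Mfsd2a itself overlapped between the Cort-/- groups. Its log2FC there was −0.22 (95% interval −0.66 to 0.23, limma, adjusted p = 0.740), so the relative difference also holds the rise of the endothelial mean. The comparison with the endothelial mean was chosen after the levels had been seen. A ratio of this kind shows unequal change between genes and not which of them changed.

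**Figure D4:**
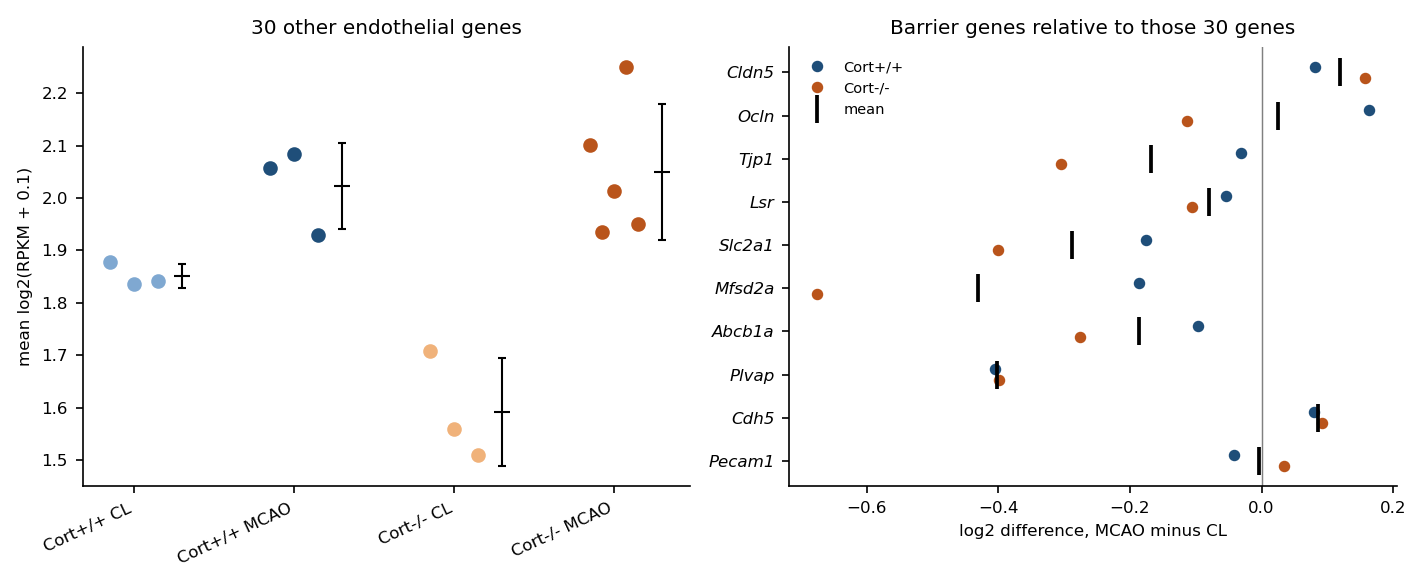
Left, mean log2(RPKM + 0.1) of 30 other endothelial genes (y axis, not from 0) in each library by group, with mean ± SD beside it; right, the MCAO minus CL difference (x axis, log2) of each barrier gene after subtracting that mean, by genotype and as the mean of both. The 3 Cort-/- CL libraries are the lowest on the left (1.51 to 1.71), and Plvap and Mfsd2a lie farthest to the left on the right (−0.40 and −0.43).

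Within groups the 10 genes did not vary as 1 unit. Of the 45 pairs, 30 had a positive correlation of their deviations from the group means over the 14 libraries, with a median of 0.21. The highest were Plvap with Cldn5 (0.73), Mfsd2a with Slc2a1 (0.72) and Cdh5 with Pecam1 (0.72), and the lowest was Plvap with Tjp1 (−0.82). A length index was formed for each library, the median log2 deviation of the 3766 genes shorter than 1704 bases minus that of the 3764 genes longer than 4805 bases, as the RPKM lengths give them. It ran from −0.15 to 0.16 and averaged −0.03 in Cort+/+ CL, 0.04 in Cort+/+ MCAO, −0.07 in Cort-/- CL and 0.05 in Cort-/- MCAO.

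The deviations of Plvap (1987 bases) correlated with this index at 0.82, those of Cldn5 (1416 bases) at 0.61 and those of Tjp1 (7109 bases) at −0.87, given as a description over the 14 libraries. Cdh5 (3995 bases) and Lsr (2172 bases) had 0.11 and 0.06. With the index as a covariate, a fit added after the data had been seen, the mean log2FC of Cldn5 in MCAO was 0.25 in place of 0.43 (adjusted p = 0.402), and that of Tjp1 was 0.30 in place of 0.15 (adjusted p = 0.0310). Ocln (0.37) and Cdh5 (0.37) kept their size and lost their call (adjusted p = 0.175 and 0.217), and Plvap had −0.36 (adjusted p = 0.125). The source of this index was not tested.

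**Figure D5:**
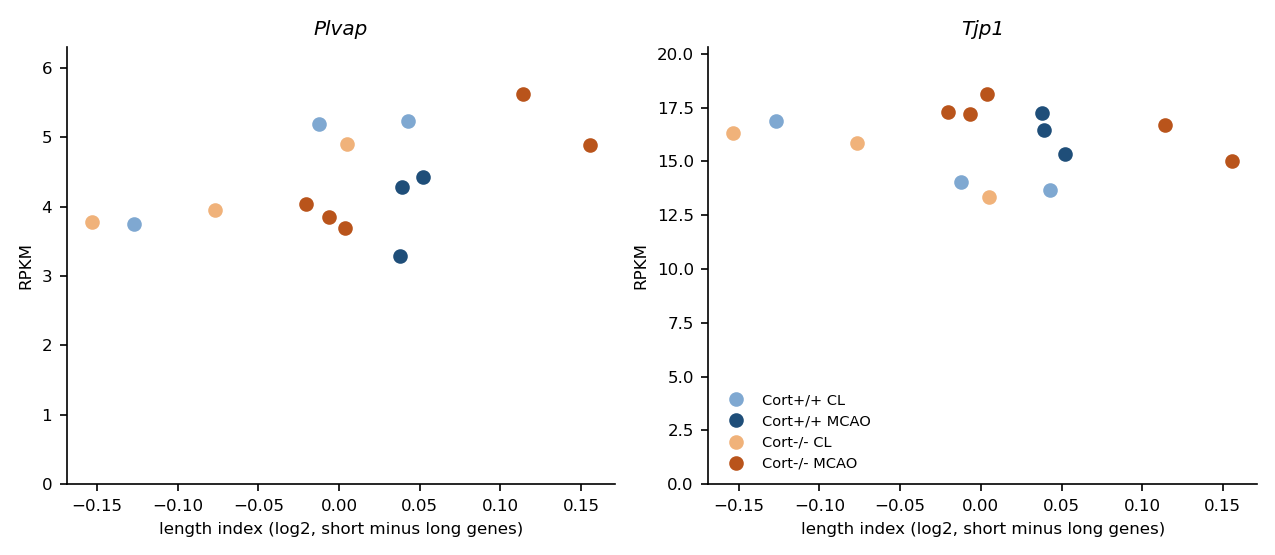
RPKM of Plvap (left) and Tjp1 (right; y axes from 0) against the length index of the library (x axis, log2), with each point a library coloured by group. Plvap is higher and Tjp1 lower in libraries with a higher index within groups (correlation of deviations 0.82 and −0.87).

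The 5 genes most like each of 3 barrier genes, by Pearson correlation of log2 levels over the 14 libraries among the same 15063 genes, were listed as a description. For Cdh5 they were Ehd2, Lcat, Ctnna1, Dock1 and Tpm4 (r = 0.93, 0.93, 0.93, 0.92 and 0.92), of which Ctnna1 encodes a partner in the adherens junction. For Cldn5 they were Fmnl3, Chchd1, Vwa1, Paics and Pgm2 (0.95, 0.93, 0.92, 0.91 and 0.91). For Plvap they were Exosc1, 9030407P20Rik, Dnajc8, Rtca and Taf9 (0.94, 0.92, 0.91, 0.91 and 0.91), none of them an endothelial marker of the lists used.

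Marker genes of other cells were counted in the same way. Over both genotypes 2.52% of all genes and 5.56% of those averaging 1 RPKM or more were called higher. Summed leukocyte markers ran from 13.7 to 19.7 RPKM in Cort+/+ CL and 27.04 to 51.96 in Cort+/+ MCAO, and from 16.1 to 24.7 in Cort-/- CL and 34.3 to 72.0 in Cort-/- MCAO, with 3 of 10 called higher over both genotypes and the T cell marker Cd3e at most 0.0917 RPKM. Microglia markers rose in 5 of 6 genes (median log2FC 0.65), and astrocyte markers in 3 of 6 (0.21). Of the fibroblast markers 1 of 6 rose (0.44), of the pericyte markers 1 of 10 (0.20) and of the smooth muscle markers 2 of 6 (−0.04). The fibroblast and pericyte counts are 1 gene each. No neuron (−0.10), oligodendrocyte (−0.03), platelet (0.16), red blood cell (−0.24) or choroid plexus (0.10) marker was called. The part of these cells in the changes of F11r, Pecam1 and Cavin3 was not tested.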

How the data were processed

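RNA of 14 brain hemispheres was sequenced from stranded mRNA libraries (RNA 48 h after surgery). The deposited table holds RPKM values that the authors made with reanalyzerGSE 3.0.0 on GRCm39 and GENCODE M28. The aligner, the counter and the library scaling are not given in the sources used here. Gene lengths and library sizes were searched for that turn the deposited RPKM values into whole reads (100% of 495656 values within 0.01 reads). The length found equalled the annotated length for 21416 of the 46904 genes. The recovered reads on genes ran from 25999138 to 43047054 per library. In the 19 pairs of libraries within a group, the chi-square of these reads was 5.22 to 22.8 times its degrees of freedom, so no library appeared to be deposited more than once.

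Genes above 0 in at least 2 libraries (46102) were tested on log2(RPKM + 0.1) with limma 3.58.1 in R 4.3.3, fitting the 4 groups jointly (trend option on) with Benjamini-Hochberg adjustment over all genes, which was tested on simulated data. Fold changes are on this scale and understate changes of low genes. The threshold was an adjusted p of 0.05. Intervals are 95%; groups of 3 to 5 libraries make them wide. Groups came from the sample titles. Python 3.11.15 and scipy 1.17.1 were used for exact permutations and summaries.

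The 10 genes and all 16 lists were chosen with earlier results of these data known. Named list genes were, per pathway list and for the pan-endothelial list, the 3 of lowest p over both genotypes with a mean of at least 1 RPKM plus called genes, up to 6 per list; 1 named junction gene is not reported here. Sox17 is in 2 lists. Positions are GRCm39 (GENCODE M39), and promoter windows are RefSeq, GRCm38.p6. Alternatives were 2 other pseudocounts, 2 filters, 3 scalings, a fit of only the groups compared, array weights, voom on the recovered reads, a replicate block, 14 omissions of 1 library, and a length covariate added later.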

Additional observations from a re-analysis of the deposited data

How the results depend on the processing

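No barrier gene was called in Cort+/+ MCAO against CL, in either genotype comparison or in the interaction under any of the alternatives run. In Cort-/- mice 1 gene was called in MCAO, against 0 with a pseudocount of 1, quantile normalization, only the groups compared, the replicate block or the length covariate, and 2 with a pseudocount of 0.01, a mean of at least 0.5 RPKM, TPM or voom on recovered reads; omitting 1 library gave 0 to 1. Over both genotypes 3 genes were called, against 2 with no filter on low values or with TPM (Ocln lost), 1 with a pseudocount of 1, quantile normalization or the length covariate (there Tjp1, not one of the 3), 0 with the replicate block, and 0 to 2 when 1 library was omitted. The fit of only the groups compared gave no value for the mean of genotypes or the interaction. With the replicate block 0 genes were called over both genotypes, at log2FC 0.47 for Cldn5, 0.36 for Ocln and 0.34 for Cdh5 (adjusted p = 0.177, 0.268 and 0.173). Same-numbered CL and MCAO libraries deviated together weakly or not at all (r = 0.32 and −0.14 in Cort+/+, and −0.06, −0.24 and 0.03 in Cort-/-). Deviations from the means of 3 to 5 libraries sum to 0 within a group. These few values therefore cannot show whether same-numbered libraries came from the same mouse, and the main fit did not pair them. The same settings also lowered the calls over all genes, where over both genotypes the block called 0 of 46102 genes, and the length covariate 130 higher and 34 lower in place of 1163 and 416. No called gene changed direction in any alternative. TPM scaling moved the median of genes at 1 RPKM or more by under 0.1 on the log2 scale. Depth allowed 172 or more reads for each barrier gene in every library.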
